A study of Mus musculus with 8 samples.

Results

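Small leucine-rich proteoglycans (SLRPs) are secreted matrix proteins. Here 9 of their genes were followed in a mouse cell line labelled as lymphatic endothelial: Dcn, Bgn, Aspn, Fmod, Lum, Prelp, Omd, Ogn and Podn. They were chosen by name, as the entries of the count table whose symbol equals one of these 9, and all 9 were found among the 55471 genes of the table. SV-LECs, a line made from mesenteric adventitial tissue and immortalized with SV40, were grown in DMEM with FBS and either left untreated or given 10 ng/ml TGFβ1 for 72 h. Poly(A) RNA was sequenced from 4 libraries per group, 8 in all. Both groups are the same immortalized line, and the study's Methods call the libraries of a group technical replicates, so errors and p-values cover variation between libraries and not between independent cultures.

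Each SLRP has a core of leucine-rich repeats folded into a curved shape, and most carry glycosaminoglycan chains of chondroitin, dermatan or keratan sulfate. Many bind collagen fibrils and affect their spacing and width, and decorin and biglycan also bind TGFβ, other growth factors and cell surface receptors. By structure the family falls into classes: decorin (Dcn), biglycan (Bgn) and asporin (Aspn) form class I, fibromodulin (Fmod), lumican (Lum), Prelp and osteomodulin (Omd) belong to class II, osteoglycin (Ogn) to class III, and podocan (Podn) to a later, noncanonical class.

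Among these genes, Dcn fell 3.76-fold in TGFβ1-treated cells while Bgn rose 1.58-fold and Podn 1.62-fold. Fmod fell 1.15-fold with overlapping groups, whereas the differences of Ogn, Omd and Prelp did not pass the test. Lum and Aspn were too low to be tested. edgeR's likelihood ratio test was run on 13818 genes with enough counts, and a gene was called at a false discovery rate (FDR, Benjamini-Hochberg) below 0.05. Levels are given as CPM, the counts scaled to a common library size. Of the 7 proteoglycan genes tested, 2 were higher, where 37.6% of all genes tested were higher, and 2 were lower, against 38.0% of all genes. In either direction 4 of 7 were called, and 75.6% of all genes tested were called, so the share of called genes was no greater in the set than in the table. In 3 of the 7 all libraries of one group lay beyond all libraries of the other, which held for 69.8% of all genes tested. The median log2 fold change of the 7 genes was 0.01, and that of all genes tested was -0.0064.

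The stretch around the start of transcription is shown for 4 genes whose RNA behaved differently: Bgn and Podn, which rose, Fmod, which fell slightly, and Ogn, which was not called. Each runs from 250 bases before to 50 bases after the start, 5′ to 3′ on the gene's strand, and comes from RefSeq on GRCm38.p6, which matched 7 of the 9 genes. Dcn and Lum had no entry. Capitals mark matches on either strand to CAGAC (the SMAD box, bound by the factors that TGFβ receptors activate), TGANTCA (AP-1), GGGCGG (the GC box), TATAAA and CAGGTG (the E2 box). Bgn lies at chrX:73483351-73483650 on the plus strand, Podn at chr4:108031905-108032204 on the minus strand, Fmod at chr1:134037004-134037303 on the plus strand and Ogn at chr13:49607765-49608064 on the plus strand.
Bgn: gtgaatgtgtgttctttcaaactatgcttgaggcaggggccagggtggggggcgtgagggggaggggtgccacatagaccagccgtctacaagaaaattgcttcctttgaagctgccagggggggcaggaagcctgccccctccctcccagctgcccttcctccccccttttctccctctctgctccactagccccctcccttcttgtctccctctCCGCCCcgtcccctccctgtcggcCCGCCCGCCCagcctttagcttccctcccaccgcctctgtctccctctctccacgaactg
Podn: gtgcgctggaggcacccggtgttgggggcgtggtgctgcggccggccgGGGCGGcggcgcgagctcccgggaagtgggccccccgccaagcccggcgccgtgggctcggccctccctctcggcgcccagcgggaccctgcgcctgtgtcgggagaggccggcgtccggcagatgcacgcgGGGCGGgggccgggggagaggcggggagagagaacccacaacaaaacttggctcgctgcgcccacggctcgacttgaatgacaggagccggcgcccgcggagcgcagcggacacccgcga
Fmod: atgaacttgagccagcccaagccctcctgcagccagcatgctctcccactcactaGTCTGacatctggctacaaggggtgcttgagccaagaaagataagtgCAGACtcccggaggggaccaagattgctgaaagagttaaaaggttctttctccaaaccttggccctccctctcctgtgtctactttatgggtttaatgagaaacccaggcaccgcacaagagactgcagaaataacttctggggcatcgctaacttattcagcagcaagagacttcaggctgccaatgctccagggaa
Ogn: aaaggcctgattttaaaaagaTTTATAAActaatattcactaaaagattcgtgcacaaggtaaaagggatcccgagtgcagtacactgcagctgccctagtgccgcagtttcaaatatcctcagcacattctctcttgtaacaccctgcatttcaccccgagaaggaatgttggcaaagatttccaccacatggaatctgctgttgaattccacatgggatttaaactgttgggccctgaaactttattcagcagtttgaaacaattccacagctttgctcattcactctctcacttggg
Base composition differed among them, with 63.7% G or C in Bgn, 77% in Podn, 51% in Fmod and 42.3% in Ogn. The Bgn stretch held 3 GC boxes, beginning at -34, -10 and -6 from the start and the last pair overlapping, and the Podn stretch held 2, at -202 and -70. GC boxes occurred in 35.7% of 32851 promoters of the same length. The Fmod stretch held 2 SMAD boxes, at -195 and -148, and none was found in those of Bgn, Ogn or Podn, while 49.6% of all promoters held one. Ogn had 2 overlapping TATAAA matches at -229 and -227, against 13.6% of promoters with at least 1. None of the 4 stretches held an AP-1 match, found in 7.81% of promoters, or an E2 box, found in 20.2%. Podn has another start in the same reference, whose stretch held 1 SMAD box and 2 E2 boxes. Both Podn stretches lie inside the annotated gene, which on the minus strand begins at 108096445. Which start was used in these cells was not determined. Prelp had 3 SMAD boxes, and the G and C content was 55.3% in Prelp, 37.7% in Omd and 31% in Aspn. These matches are letters in a window and say nothing of binding.

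Total counts were between 19182616 and 26077972 in untreated and between 18952504 and 26386941 in TGFβ1-treated libraries. A count of 3, taken as the floor, corresponded to 0.113 to 0.152 CPM in untreated and 0.116 to 0.162 CPM in treated libraries, which covers counting error only. The first principal component held 88.8% of the variance and separated the groups. Of 12 genes that respond to TGFβ signalling, 9 were higher and 3, Smad6, Id1 and Id3, were lower (median log2 fold change 0.85). Among all genes tested, 37.6% were higher and 38.0% lower, so 75.6% were called. Id1 lost its call in 9 of 17 alternatives (highest FDR 0.226). The labelled cell type was checked against its markers. Of 6 lymphatic markers, Pdpn (342 CPM untreated, 313 treated) and Flt4 (21.6 and 29.3 CPM) were above 1 CPM in every library, while Prox1, Lyve1, Reln and Ccl21a had at most 3 counts in any library. Among general endothelial markers, Eng and Kdr were present, whereas Cdh5 and Emcn had at most 3 counts and Pecam1 at most 5. The markers thus bore out the label only in part.

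Dcn encodes decorin, a class I proteoglycan that binds collagen fibrils and TGFβ. It lies on chromosome 10 from 97479609 to 97518143 on the plus strand (GRCm38, gene ENSMUSG00000019929). Dcn was at 295, 324, 314 and 314 CPM in untreated libraries 1 to 4 and at 91.0, 81.6, 83.9 and 75.3 CPM in TGFβ1-treated libraries 1 to 4. Every treated library lay far below every untreated one. Mean CPM fell from 312 ± 11.7 to 83.0 ± 6.48 (± SD, 4 libraries each, as in all means here), a log2 fold change of -1.91 (SE 0.0548, 95% interval -2.02 to -1.80, FDR 8.02e-253). Only 5.71% of the genes tested had a larger absolute log2 fold change. Dcn had 6133 to 8615 counts in the untreated and 1677 to 1941 in the treated libraries. In bulk RNA, fewer cells that express a gene and less of its RNA per cell cannot be told apart.

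Bgn encodes biglycan, the closest relative of decorin, which binds collagens and Toll-like receptors. It lies on chromosome X from 73483602 to 73495933 on the plus strand (ENSMUSG00000031375). Its level was 1726, 1766, 1698 and 1797 CPM in the untreated and 2863, 2887, 2678 and 2617 CPM in the treated libraries. The groups did not overlap, and the direction was opposite to that of Dcn. Mean CPM rose from 1747 ± 43.8 to 2761 ± 134, with a log2 fold change of 0.66 (SE 0.0442, 95% interval 0.57 to 0.75, FDR 4.56e-49). A larger absolute log2 fold change was found in 30.2% of all genes tested, so the relative change of Bgn was moderate in this comparison. Scaled to exon length, 99.55% of the 13814 tested genes with a known length had a lower level than Bgn in untreated cells.

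Asporin, the third class I protein, binds collagen and TGFβ1 through its core and usually lacks a glycosaminoglycan chain. Its gene Aspn (chromosome 13, 49544443 to 49567565, plus strand) had 0, 0, 0 and 1 counts in untreated and 1, 2, 0 and 3 counts in treated libraries. All libraries were at or under the floor, so no fold was given and Aspn RNA was not measurable at this depth.

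Fmod encodes fibromodulin, a class II keratan sulfate proteoglycan that binds collagen I and takes part in its cross-linking. It lies on chromosome 1 from 134037254 to 134048277 on the plus strand. Fmod was at 24.1, 26.2, 21.7 and 21.6 CPM in the untreated and at 20.3, 19.3, 21.8 and 20.3 CPM in the treated libraries. Treated library 3 lay above untreated libraries 3 and 4, so the groups overlapped. The mean fell from 23.4 ± 2.19 to 20.4 ± 1.04 CPM (log2 fold change -0.20, SE 0.0766, 95% interval -0.35 to -0.05, edgeR FDR 0.0136), while the exact two-sided permutation test over the libraries gave p = 0.0857. Without untreated library 2 the log2 fold change was -0.14 (FDR 0.0893), and without treated library 2 it was -0.17 (FDR 0.0523). The call of Fmod was thus lost without either library.

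Lum encodes lumican, the keratan sulfate proteoglycan needed for regular collagen spacing and clarity of the cornea. The gene (chromosome 10, 97565128 to 97572703, plus strand) had 8, 9, 4 and 9 counts in untreated libraries and 0, 1, 0 and 0 counts in treated libraries. These are 30 counts against 1, and no treated library reached the lowest untreated one. The ratio of the counts, scaled to library size, was 28.4 with an exact 95% counting interval of 4.72 to 1158. The exact two-sided permutation test gave p = 0.0286, the smallest that the 70 arrangements of 8 libraries allow. Lum did not pass the filter on low counts. When no filter was applied, its edgeR FDR was 5.80e-08, with a log2 fold change of -4.31 that depends on the prior count.

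Prelp encodes a class II protein of basement membranes that binds heparan sulfate and collagen, and its gene lies on chromosome 1 from 133910304 to 133921414 on the minus strand. It had 52, 67, 47 and 53 counts in untreated libraries and 58, 44, 55 and 51 counts in treated libraries. Untreated levels were between 2.05 and 2.69 CPM and lay within the treated range of 1.98 to 3.14 CPM. The log2 fold change was 0.01 (SE 0.170, 95% interval -0.32 to 0.35, edgeR FDR 0.944). This interval leaves room for a difference of that size in either direction. Of the 75-base stretches of Prelp transcripts, 7.78% were shared with Gm15851 on the opposite strand, and whether the counting used strand is not given in the sources used here.

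Omd encodes osteomodulin, also known as osteoadherin, a keratan sulfate proteoglycan of mineralized tissue. The gene (chromosome 13, 49582462 to 49592822, plus strand) had 25, 23, 27 and 19 counts in untreated libraries and 17, 13, 11 and 23 counts in treated libraries. On the CPM scale treated libraries 1 and 4 lay above untreated library 2, so the groups overlapped. Mean levels were 1.05 ± 0.166 and 0.747 ± 0.188 CPM (log2 fold change -0.47, SE 0.245, 95% interval -0.95 to 0.01, edgeR FDR 0.0654). Leaving out untreated library 2 gave a log2 fold change of -0.57 with an FDR of 0.0371, leaving out treated library 1 gave -0.57 with 0.0440, and leaving out treated library 4 gave -0.59 with 0.0443. Omd was therefore called or not according to single libraries. Another 24 genes shared 3.38% of its 75-base stretches.

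Ogn encodes osteoglycin, also called mimecan, the only class III gene among the 9. It lies on chromosome 13 from 49608046 to 49624501 on the plus strand. Levels were 84.4, 81.8, 83.0 and 82.7 CPM in the untreated and 85.7, 89.2, 86.9 and 83.6 CPM in the treated libraries. Only the lowest treated library, at 83.6 CPM, lay under the highest untreated one. Means were 83.0 ± 1.08 and 86.4 ± 2.32 CPM, with a log2 fold change of 0.06 (SE 0.0431, 95% interval -0.03 to 0.14, edgeR FDR 0.216). With 1584 to 2177 counts per library, the interval was narrower for Ogn than for the other uncalled genes.

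Podn encodes podocan, a collagen-binding protein of the noncanonical class first described in the kidney glomerulus. The gene lies on chromosome 4 from 108014791 to 108096445 on the minus strand. It was at 18.3, 16.6, 16.2 and 15.2 CPM in the untreated and at 25.96, 27.3, 29.1 and 25.4 CPM in the treated libraries. The groups did not overlap, as for Bgn. Podn rose from 16.6 ± 1.28 to 26.9 ± 1.64 CPM (log2 fold change 0.70, SE 0.0726, 95% interval 0.56 to 0.84, edgeR FDR 2.37e-21). The intervals of the log2 fold changes of Podn and Bgn overlapped, and the difference between them was not tested.

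**Figure D1:**
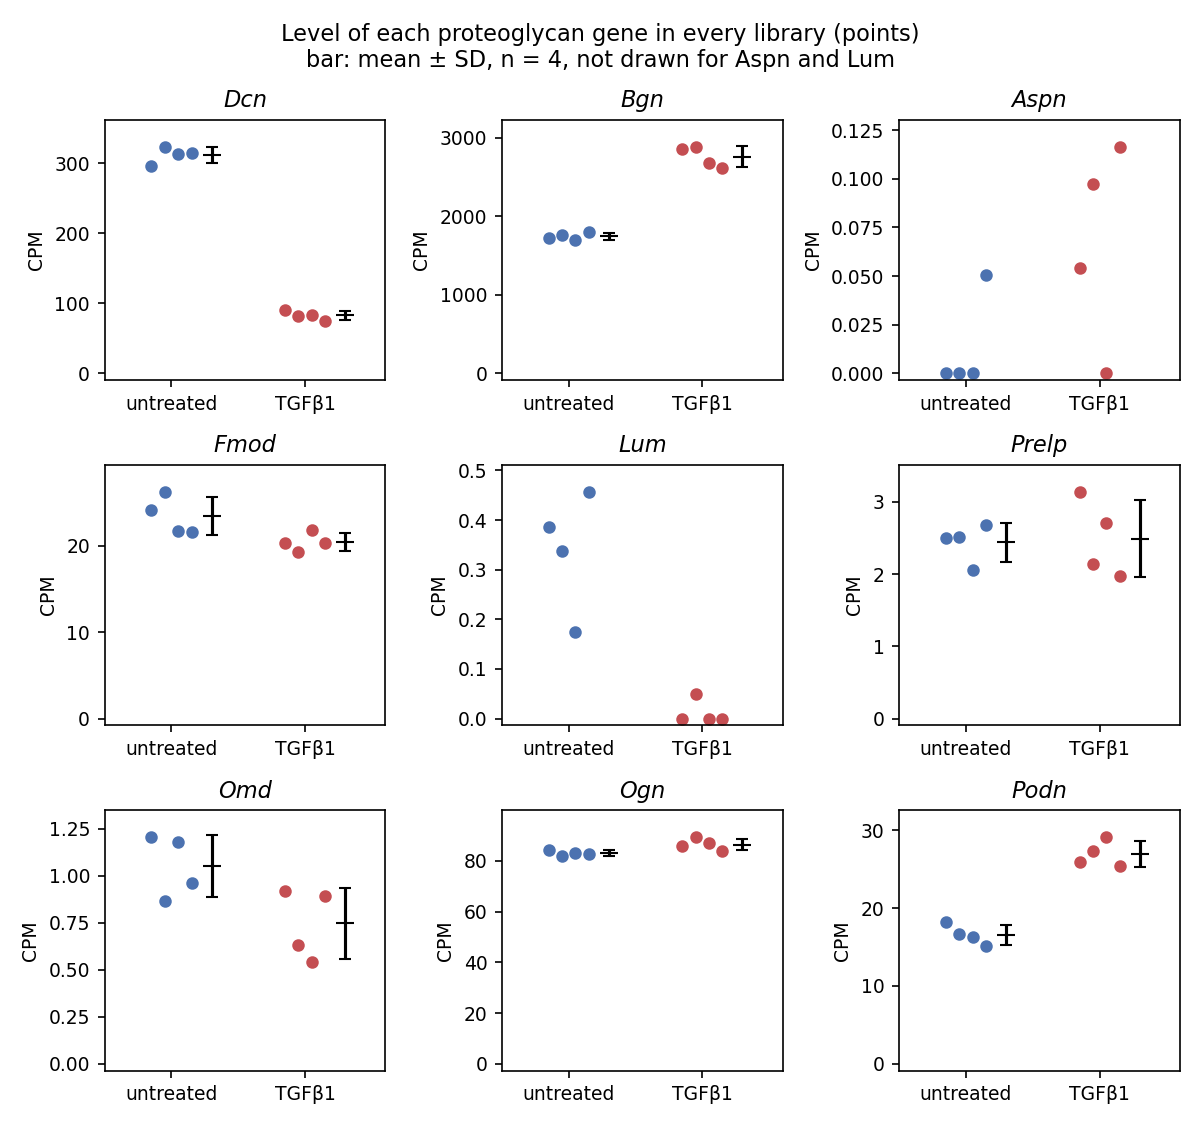
Level of each of the 9 genes in every library, in CPM on a linear axis, for untreated (blue) and TGFβ1-treated (red) cells, with mean ± SD beside the points except for Aspn and Lum, which had few counts. Dcn and Lum lie lower and Bgn and Podn higher in all treated libraries, whereas Fmod, Ogn, Omd, Prelp and Aspn overlap.

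Levels of different genes were compared per kilobase of exon length, since longer transcripts give more reads. This length merges all annotated exons of a gene and can exceed that of the RNA present. Which isoforms were present was not determined. Bgn was the most abundant of the 9 in both groups, at 286 ± 7.18 CPM per kb in untreated and 453 ± 21.95 in treated cells. Dcn came next in untreated cells at 53.4 ± 2.01 CPM per kb, ahead of Ogn at 32.3 ± 0.421. After TGFβ1 this order was turned, with Ogn at 33.7 ± 0.904 and Dcn at 14.2 ± 1.11 CPM per kb. The ratio of Ogn to Dcn, on the same scale, was 0.606 ± 0.0313 in untreated and 2.38 ± 0.173 in treated cells. Ogn itself was not called, and Dcn fell. The turned order depended on the scaling to length, since the ratio of Ogn to Dcn in treated libraries 1 to 4 was 0.941, 1.09, 1.04 and 1.11 by CPM alone. Fmod followed at 7.07 ± 0.664 and 6.18 ± 0.313 CPM per kb, and Podn at 3.88 ± 0.301 and 6.31 ± 0.385. In treated cells the ranges of Fmod (5.83 to 6.59) and Podn (5.94 to 6.81) overlapped, so these neighbours did not differ beyond their spread on this scale. By CPM alone the ranges did not overlap, with Fmod at 19.3 to 21.8 CPM and Podn at 25.4 to 29.1 CPM in treated cells. Prelp (0.675 and 0.689 CPM per kb) and Omd (0.468 and 0.332) were lower still, and their ranges did not overlap in either group. Lum and Aspn closed the order in untreated cells, at 0.138 and 0.00539 CPM per kb.

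The make-up of the set changed with the opposite movements of Dcn and Bgn. Summed over the 9 genes, the level was 384 ± 7.90 CPM per kb in untreated and 514 ± 23.2 in treated cells, and the ranges of 376 to 392 and 488 to 535 did not overlap. Bgn made up 74.5 ± 0.474% of this sum in untreated and 88.0 ± 0.397% in treated cells. The share of Dcn was 13.9 ± 0.443% and 2.76 ± 0.158%. Ogn held 8.41 ± 0.257% and 6.55 ± 0.212%, although its own level was not called as different. In untreated libraries 1 to 4 there were 5.59, 5.23, 5.18 and 5.48 units of Bgn per unit of Dcn, and in treated libraries 30.1, 33.8, 30.5 and 33.2. The lowest treated ratio lay well above the highest untreated ratio. Their means were 5.37 ± 0.196 and 31.9 ± 1.89, a 5.95-fold difference. Since Dcn and Bgn each separated the groups in opposite directions, the ratio had to separate them too, and no test is given for it.

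**Figure D2:**
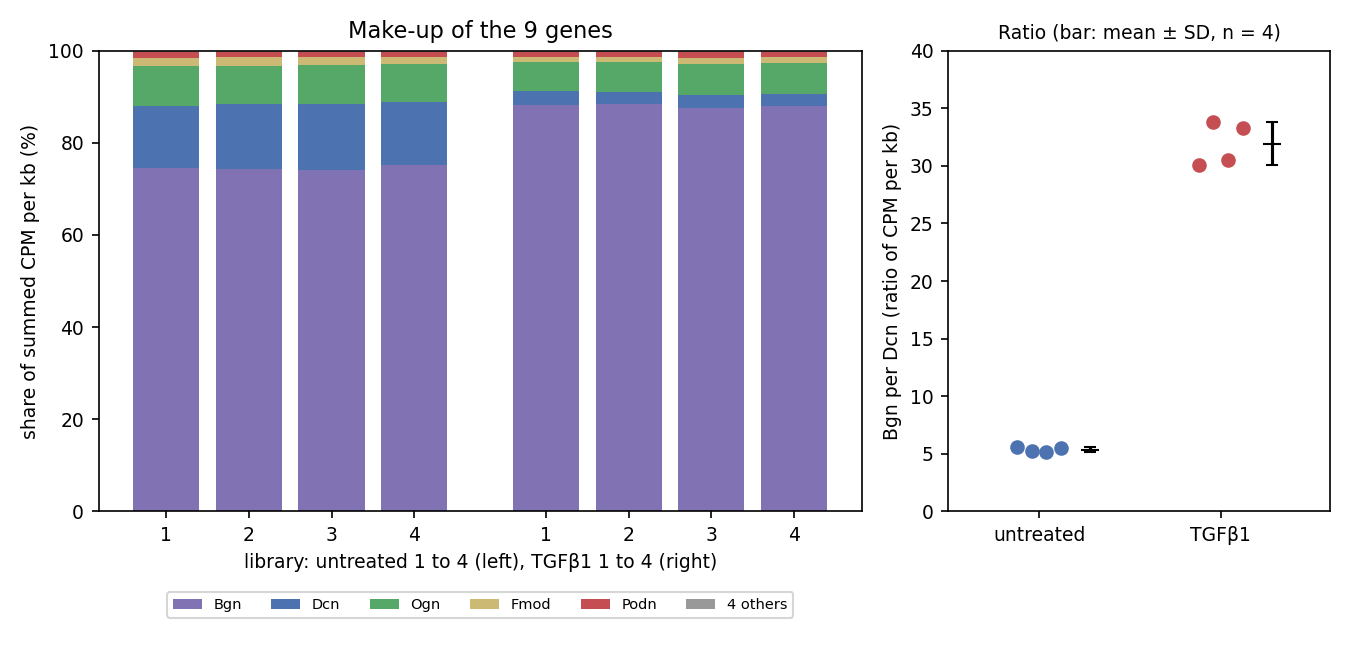
Left, share of each gene in the summed CPM per kb of the 9 genes in each library, in percent. Right, ratio of Bgn to Dcn per library, with mean ± SD (n = 4), which was 5.37 in untreated and 31.9 in TGFβ1-treated cells.

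Another 10 genes of the wider family were examined. Of these, 5 were tested, of which 3 were higher, 1 was lower and 1 was not called, and their median log2 fold change was 1.02. Over all genes tested, 37.6% were higher and 38.0% lower, so 4 of 5 called was near the 75.6% of the whole table. Tsku encodes tsukushi, a secreted protein that binds BMP and Wnt signalling components. It had 1285, 1673, 1422 and 1162 counts in untreated and 2256, 2635, 2505 and 3209 counts in treated libraries, and its level rose 2.03-fold from 61.4 ± 1.73 to 125 ± 2.71 CPM (log2 fold change 1.02, SE 0.044, edgeR FDR 7.00e-117). Podnl1, the podocan-like gene and closest relative of Podn, had 29, 36, 26 and 24 counts against 96, 92, 123 and 138. It rose 4.11-fold, from 1.28 ± 0.121 to 5.27 ± 0.646 CPM (log2 fold change 2.04, SE 0.170, edgeR FDR 3.88e-37). Both podocan genes were therefore higher in treated cells. Ecm2, which lies beside Aspn, had 5, 3, 4 and 3 counts in untreated and 30, 16, 20 and 15 in treated libraries, and rose with a log2 fold change of 2.50 (SE 0.452, edgeR FDR 1.39e-09). In these 3 genes the groups did not overlap, as in 69.8% of all genes tested.

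Optc encodes opticin, a class III protein of the vitreous of the eye. It had 20, 19, 19 and 12 counts in untreated and 9, 13, 9 and 8 counts in treated libraries, with groups that overlapped on the CPM scale. Its log2 fold change of -0.75 (SE 0.298) had an edgeR FDR of 0.0133 but an FDR of 0.0789 in DESeq2. The call was also lost without untreated library 1 (-0.65, FDR 0.0510) and without treated library 4 (-0.57, FDR 0.0894). Chadl, a chondroadherin-like gene, was not called (log2 fold change -0.51, SE 0.331, edgeR FDR 0.150) and overlaps L3mbtl2 on the opposite strand. Nyx, known from the retina, had 2, 3, 1 and 1 counts in untreated and 2, 9, 2 and 15 in treated libraries and did not pass the filter. Kera had 0 counts in every library, and Chad, Epyc and Nepn had at most 3 counts.

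**Figure D3:**
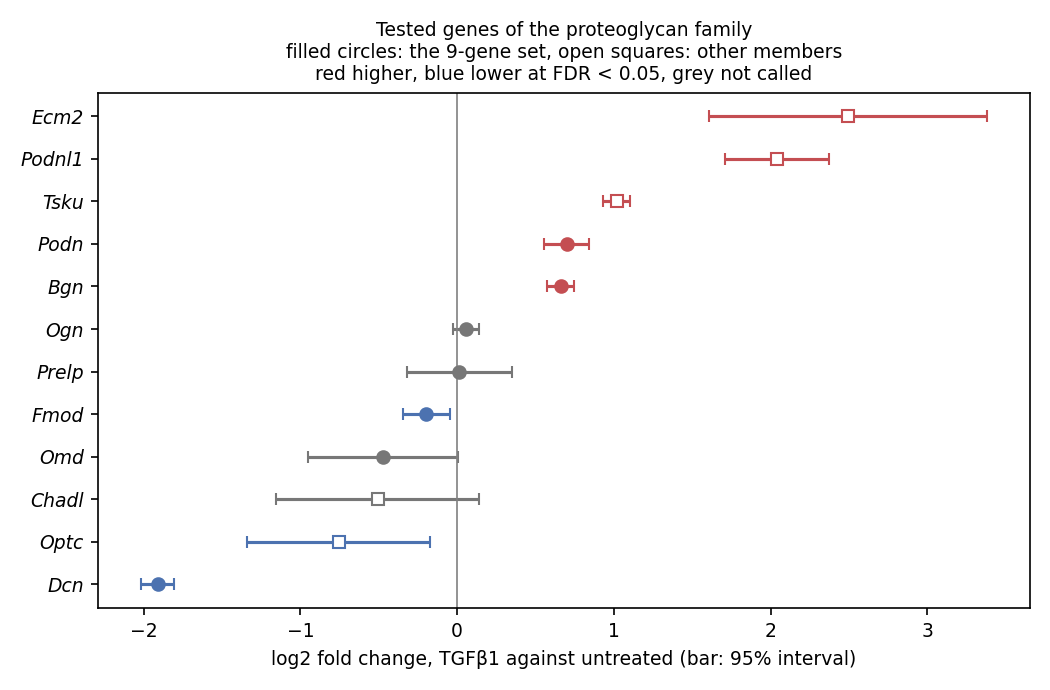
Log2 fold change of TGFβ1-treated against untreated cells for the 12 family genes tested, with 95% intervals. Filled circles are genes of the 9-gene set and open squares other members. Dcn lies lowest at -1.91 and Ecm2 highest at 2.50, and the intervals of Ogn, Prelp, Omd and Chadl cross 0.

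Many SLRP genes lie side by side in clusters that arose by gene duplication. On chromosome 10, Dcn, Lum, Kera and Epyc span 202.8 kb. Dcn was abundant there, its neighbour Lum had few counts, and both had fewer counts after TGFβ1. On chromosome 1, Optc, Prelp and Fmod span 151.1 kb. Fmod and Optc were called lower, with calls that single libraries could remove, and Prelp between them was not called. The third cluster, on chromosome 13, holds Ecm2, Aspn, Omd and Ogn within 119.7 kb, inside the body of Cenpp on the opposite strand. Ecm2 rose, Omd and Ogn were not called, and Aspn was at the floor. Bgn and Podn, which rose, lie outside these clusters.

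**Figure D4:**
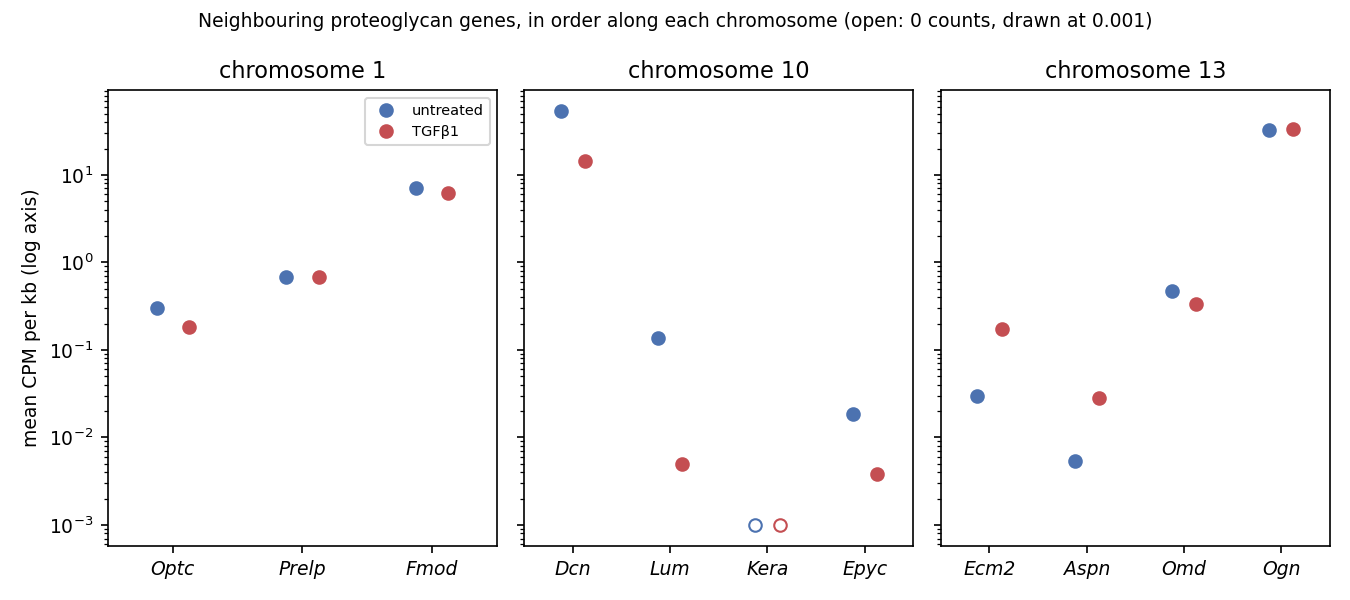
Mean level in CPM per kb (log axis) of neighbouring family genes, in their order along chromosomes 1, 10 and 13, in untreated (blue) and TGFβ1-treated (red) cells. Open points mark Kera, with 0 counts. Abundant Dcn and Ogn each lie beside genes with much lower levels.

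The glycosaminoglycan chains of SLRPs are built by enzymes whose genes were also tested. The counts of called genes in this and the following lists stand against 37.6% higher, 38.0% lower and 75.6% called in either direction among all genes tested. Of 22 genes for chondroitin and dermatan sulfate synthesis, 17 were tested, of which 10 were higher, 4 were lower and 3 were not called, with a median log2 fold change of 0.45 where the median of all genes was -0.0064. The sulfotransferase gene Chst11, which sulfates chondroitin, rose from 14.7 ± 2.34 to 58.7 ± 6.26 CPM (log2 fold change 1.99). Chst7 (1.56), the chain-polymerizing Chpf2 (1.27) and the uronyl sulfotransferase Ust (1.21) also rose on the log2 scale. Of these, Chst7 was low, at 0.459 ± 0.197 CPM in untreated and 1.40 ± 0.517 CPM in treated cells. Dse, whose enzyme converts chondroitin to the dermatan sulfate form found on decorin and biglycan, fell from 174 ± 3.25 to 145 ± 3.05 CPM (log2 fold change -0.26, edgeR FDR 1.30e-10). Xylt2 (-0.16), Chsy1 (-0.12) and Csgalnact2 (-0.10) had small log2 fold changes, and with DESeq2 the calls of Xylt2 (FDR 0.0668) and Csgalnact2 (FDR 0.0711) were lost, which left 2 lower genes. Of 8 keratan sulfate genes, 4 were tested and all 4 were called, where 75.6% of all genes were, with a median of -0.30. B4galt1 (0.73) and Chst2 (0.45) were higher, while B4galt4 (-1.06) and B3gnt7 (-2.73), whose enzyme extends keratan sulfate, were lower on the log2 scale. B3gnt7 was low, at 1.37 ± 0.312 CPM in untreated and 0.220 ± 0.201 CPM in treated cells. It had 9, 4, 4 and 0 counts in treated libraries 1 to 4.

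Among 13 genes of collagen chains that SLRPs bind or lie beside, 11 were tested, of which 6 were higher, 4 were lower and 1 was not called (median log2 fold change 0.81), beside 37.6% higher and 38.0% lower among all genes. The fibril-forming Col2a1 (0.274 ± 0.128 to 5.23 ± 1.02 CPM) and Col11a1 (31.9 ± 3.62 to 495 ± 11.3 CPM) had log2 fold changes of 4.26 and 3.95. Col5a3 (1.79) and Col12a1 (1.02) were higher as well. For collagen VI, which binds decorin and biglycan, Col6a1 (log2 fold change -1.30) and Col6a2 (-1.21) went the other way. Col6a3 had at most 1 count in any library. Col3a1 fell from 3408 ± 342 to 1805 ± 72.1 CPM (-0.92), and Col5a2 fell by 0.31 on the log2 scale. Col1a2 was not called.

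Decorin and biglycan also bind receptors and growth factors. Of a list of 21 receptor and growth factor genes tied to these proteins, 20 were tested. Whether each product is bound directly was not examined. The list had 15 genes higher, 4 lower and 1 not called (median log2 fold change 0.45), beside 37.6% higher and 38.0% lower among all genes. Ccn2, a matrix protein that binds decorin, rose from 219 ± 14.8 to 916 ± 51.4 CPM (2.06). Cd44 (1.99) and the purinergic receptor gene P2rx7 (1.91), both tied to biglycan signalling, and the endocytic receptor gene Lrp1 (1.74) were higher on the log2 scale. Bmp4 (-1.35), the decorin-binding receptor gene Met (-0.87), the biglycan receptor gene Tlr4 (-0.77) and the TGFβ co-receptor gene Tgfbr3 (-0.23) were lower. Tgfb2 was not called.

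Proteinases that cut SLRP cores were tested in 11 of 14 cases, with 7 higher, 3 lower and 1 not called (median log2 fold change 0.65), beside 75.6% of all genes called in either direction. Bmp1, whose enzyme removes the propeptide of biglycan and other SLRPs, rose from 232 ± 9.10 to 898 ± 19.03 CPM (1.95), and the related Tll1 rose too (1.92). Mmp9 (0.420 ± 0.172 to 17.0 ± 2.53 CPM) had the highest log2 fold change of the list, 5.28, and Mmp14 was also higher (1.17). Adamts5 fell from 595 ± 45.9 to 176 ± 13.7 CPM (-1.75), Adamts1 had a log2 fold change of -0.90 and Adamts9 of -0.45. Col1a1 and Ccn2 each stand in 2 of the lists.

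**Figure D5:**
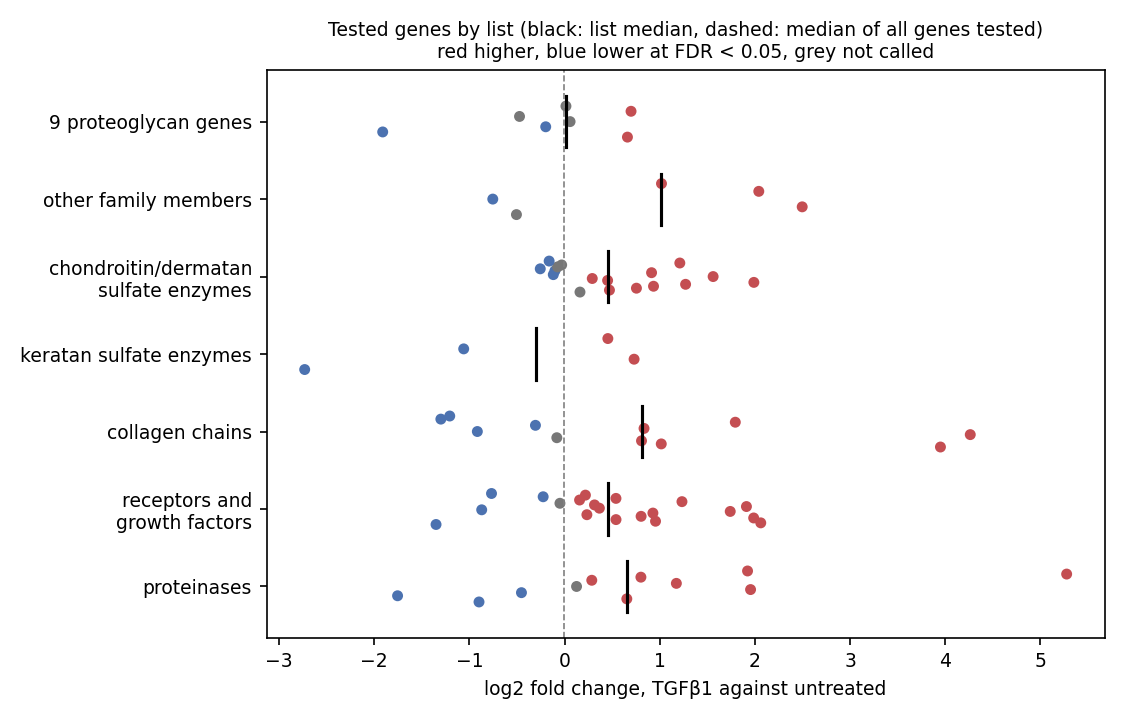
Log2 fold change of every tested gene in 7 lists, with the list's median (black) and the median of all genes tested (dashed). The median of the 9-gene set lies at 0.01, that of the collagen chains at 0.81 and that of the keratan sulfate enzymes at -0.30.

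Summed levels of markers of other cell types differed between the groups, though not all markers of a list moved alike. The summed level of 6 fibroblast markers, of which 4 were above 1 CPM in every library, was 2979 to 4338 CPM in untreated and 5491 to 6634 CPM in treated libraries, and most of it was Col1a1 (3459 and 6057 CPM on average). Within this list Pdgfra (160 and 57.8 CPM) and Thy1 (89.2 and 42.4 CPM) were lower in treated cells, and Pdgfrb was higher (44.7 and 69.3 CPM). Fap was higher as well, at low levels (0.339 and 0.858 CPM), and Dpt was too low to be tested (0.269 and 0.409 CPM). The lymphatic list summed to 344 to 381 CPM and 337 to 348 CPM, and the endothelial list to 70.2 to 78.2 CPM and 162 to 170 CPM. Most of the endothelial sum was Eng (62.0 and 143 CPM on average), followed by Kdr (11.6 and 22.1 CPM). Tek was not called (0.659 and 0.569 CPM). The smooth muscle and pericyte list summed to 12.3 to 17.2 CPM and 28.7 to 33.5 CPM. Leukocyte markers summed to 5.83 to 7.82 CPM and 14.9 to 16.9 CPM, with Ptprc and Cd3e at no more than 1 count. Nearly all of the leukocyte sum was Cd68 (6.96 and 15.9 CPM on average). Epithelial markers summed to 0.304 to 1.14 CPM and 2.36 to 4.11 CPM, and 0 of 4 were above 1 CPM in every library of either group. Krt8 (0.273 and 1.11 CPM on average) and Krt18 (0.226 and 1.24 CPM) were higher at these low levels. Epcam and Cdh1 were too low to be tested. The part of these markers in the changes of Dcn, Bgn and Podn was not tested.

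The genes whose log2 CPM over the 8 libraries correlated most with that of Bgn were Lpin3 (Pearson's r = 0.999), Csnk1g1 (r = 0.9988) and Gsap (r = 0.9984). Bgn was the most abundant of the set. Lpin3 was at only 0.202 CPM in untreated and 2.29 CPM in treated cells. Its log2 fold change was 3.47, where that of Bgn was 0.66. These correlations are descriptions over 8 libraries that fall into the 2 groups, and do not mean similar levels or folds.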

How the data were processed

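RNA of SV-LECs was sequenced by the authors from 4 untreated and 4 TGFβ1-treated samples with a stranded poly(A) kit, giving single-end reads 75 bases long. The deposited values are raw counts of reads per gene, which the authors made without normalization on GRCm38. The submitters' processing notes name bcl2fastq 2.20.0.422, STAR 2.7.3a and featureCounts 1.5.1. The annotation release and the strand setting are not given in the sources used here.

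Libraries were grouped by their labels. Replicates differed from each other by more than sampling noise (chi-square per degree of freedom 2.37 to 7.84 for pairs of one group), so none was counted as a duplicate. The comparison used edgeR 4.0.16 under R 4.3.3 (filterByExpr, TMM, glmFit and glmLRT), the test that the study's Methods name, with Benjamini-Hochberg FDRs over all 13818 genes tested and the default prior count of 0.125. SE and intervals (1.96 SE) came from the Fisher information. Exact two-sided permutation tests over libraries were run on the CPM of the family genes. Besides the p-values given for Fmod and Lum, this test gave 0.0571 for Ogn and Optc, 0.0857 for Omd and 0.8 for Prelp. For Dcn, Bgn and Podn it gave 0.0286, the smallest value possible. Exon lengths and positions came from GENCODE M21 (GRCm38) and promoters from RefSeq (GRCm38.p6). The pipeline was tested on simulated data.

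The members, the gene lists and the tests were chosen with earlier results of these data known. Named were all 9 genes, other family genes with more than 3 counts in a library, in each list up to 4 called genes per direction with the largest log2 fold change, cell type markers, and the 3 genes most correlated with Bgn. Genes outside this rule were named only to say that they were not called, at the floor or shared sequence. Alternatives comprised DESeq2 1.42.0, its size factors in edgeR, edgeR's quasi-likelihood test, total counts, other filters on low counts, an FDR of 0.01, a prior count of 2, the replicate number as a block, each library left out, and CPM without length scaling. Protein sequences were not used here.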

Additional observations from a re-analysis of the deposited data

How the results depend on the processing

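Dcn, Bgn, Podn, Tsku, Podnl1 and Ecm2 kept their direction and their call under every alternative in which they were tested. Over these, log2 fold changes were -1.98 to -1.87 for Dcn, 0.59 to 0.69 for Bgn and 0.63 to 0.74 for Podn. The log2 fold change of Ogn was -0.0098 with total counts (FDR 0.843). That of Prelp was -0.053 with total counts, -0.017 with no filter on low counts, -0.06 without untreated library 3, -0.11 without treated library 1 and -0.03 without treated library 3, and leaving out single libraries gave -0.11 to 0.12. Omd was called with total counts (-0.54, FDR 0.0342). Of 73 genes in the lists of enzymes, partners, proteinases and TGFβ response, 63 stayed on the same side of the threshold throughout.

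At an FDR of 0.01, 1 of the 9 genes was lower, and the count was 1 to 3 when single libraries were left out, with 1 without treated library 2. Of the other family genes, 5 were higher with no filter on low counts. These included Chad (at most 2 counts in a library, edgeR FDR 0.0429) and Nyx (at most 15 counts, edgeR FDR 0.00961), whose groups overlapped. With DESeq2, a stricter low-count filter (1 CPM in 4 libraries) or an FDR of 0.01, 0 were lower, and 0 to 1 when single libraries were left out. Of the chondroitin and dermatan sulfate genes, 2 were lower with DESeq2, DESeq2 size factors and the filter of 1 CPM, 1 was lower at an FDR of 0.01, 6 were lower with total counts, and 2 to 4 were lower when single libraries were left out. Without length scaling, Bgn per Dcn was 5.61 in untreated cells, and the share of Bgn was 79.9% in untreated and 92.6% in treated cells. Total counts moved the median log2 fold change of all genes to -0.0735, and no filter moved it to 0.0739. The causes of these differences were not tested.

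Samples with the same number did not deviate together (r of -0.103, -0.0594, -0.0336 and -0.193). Pairs with different numbers had r from -0.227 to 0.25. With so few libraries these values cannot show whether samples were handled together. With the replicate block, 2 of the 9 genes were higher and 2 lower, as without it, and 2 chondroitin and dermatan sulfate genes were lower.

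Low counts limit Aspn, Lum, Omd and Prelp among the 9 genes, and only variation between technical replicates of 1 line was measured.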
